A study of Homo sapiens with 4 samples.

Results

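Carnitine synthesis enzymes and carnitine acyltransferases were compared between MDA-MB-231 cells transfected with a FOXC1 plasmid and MDA-MB-231 cells transfected with the vector. The set held 9 genes, and its members were the synthesis enzymes TMLHE, ALDH9A1 and BBOX1, the carnitine palmitoyltransferases CPT1A, CPT1B, CPT1C and CPT2, carnitine acetyltransferase CRAT and carnitine octanoyltransferase CROT. For each gene the probe set with the highest mean signal was taken, and 8 of the 9 were among the 18417 genes of the array with a probe set of their own. CPT1B lay only on a probe set shared with its neighbour CHKB, a choline kinase, and their readthrough transcript, and its own level was not separable. TMLHE was selected on its measured difference between the FOXC1 and vector arrays, so its values are a description with no test. The other genes were taken by function, with earlier results of these data known.

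MDA-MB-231 cells come from a human breast cancer and have a basal-like, mesenchymal character. Both groups were grown with 10% fetal bovine serum, transfected with the same lipid reagent, and hybridised from 100 ng of total RNA to whole-transcript arrays, 2 FOXC1 and 2 vector, which the labels name biological replicates. The labels do not say whether cells were pools, clones or only transiently transfected. FOXC1 RNA itself was not analysed here, and the group labels thus have no check by the plasmid gene. Values are PLIER signal, a linear probe set summary, with medians of 499 and 512 on the FOXC1 arrays and 492 and 489 on the vector arrays. Genes were called at an adjusted p of 0.05 in limma, fitted over all named probe sets, with 31.4% of all genes called, 15.9% higher and 15.5% lower. All 8 markers listed for the line had signals of 1336 to 17873. Of these VIM, ANXA1, CAV1, LGALS1, MSN and S100A6 were called lower, S100A6 by 1.93-fold and the others by 1.22-fold or less, CD44 was called higher by 1.17-fold, and AXL was not called. Of 9 luminal epithelial markers 5 were called lower, with summed signals of 22074 to 22491 in FOXC1 cells and 26094 to 26589 in vector cells. Of 7 leukocyte markers PTPRC was called higher, with list sums of 1611 to 1736 in FOXC1 cells and 1549 to 1670.0 in vector cells. Of 6 fibroblast markers DCN was called higher (sums of 1987 to 2092 and 1929 to 1955). Of 6 endothelial markers PECAM1 and KDR were called lower (sums of 2361 to 2409 and 2996 to 3250.0). PTPRC and DCN were dim, with means of 93.7 and 147 in FOXC1 cells and 63.1 and 89.4 in vector cells. PECAM1 fell 3.15-fold, with means of 247 in FOXC1 cells and 816 in vector cells, and KDR fell 1.75-fold. No marker was at 0, and the part of these cell type genes in the results below was not tested. In bulk RNA, fewer cells of a type and less RNA per cell cannot be told apart.

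Carnitine carries long-chain fatty acids into mitochondria, where they are oxidised. Cells make it from trimethyllysine, released from methylated proteins: TMLHE, a mitochondrial iron and 2-oxoglutarate dioxygenase, hydroxylates trimethyllysine, an aldolase cleaves the product, ALDH9A1 oxidises the aldehyde to butyrobetaine, and BBOX1, a second dioxygenase found mainly in kidney and liver, hydroxylates butyrobetaine to carnitine. Most other cells take carnitine up from outside. The CPT1 enzymes then join carnitine to long-chain acyl groups, the carrier SLC25A20 moves acylcarnitine across the inner membrane, and CPT2 returns the acyl group to coenzyme A, while CRAT and CROT handle short-chain and medium-chain acyl groups.

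The promoter of TMLHE is shown because TMLHE had the widest difference of the set, and that of CPT1C because it had the next widest. The BBOX1 start is shown because it alone of the promoter windows searched held the letters TAAACA, a forkhead core. The sequences are from RefSeq on GRCh38.p14. Those of TMLHE and CPT1C are the 250 bases before an annotated start, at chrX:155612953-155613202 on the minus strand and chr19:49690866-49691115 on the plus strand, and CPT1C has 3 annotated starts of which the first listed is shown. That of BBOX1 is the stretch of 30 bases at chr11:27041787-27041816 on the plus strand, with the letters GTAAACA in capitals.
TMLHE: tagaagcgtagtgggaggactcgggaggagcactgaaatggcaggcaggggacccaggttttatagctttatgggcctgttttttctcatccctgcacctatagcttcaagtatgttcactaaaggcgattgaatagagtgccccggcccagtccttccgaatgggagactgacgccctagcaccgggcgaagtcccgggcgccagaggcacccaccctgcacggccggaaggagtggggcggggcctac
CPT1C: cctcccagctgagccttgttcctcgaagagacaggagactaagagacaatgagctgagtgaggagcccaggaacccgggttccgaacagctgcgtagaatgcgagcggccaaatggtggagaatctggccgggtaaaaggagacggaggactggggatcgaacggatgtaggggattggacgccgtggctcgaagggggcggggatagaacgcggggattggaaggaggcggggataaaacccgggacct
BBOX1: tgatccagaaaGTAAACAgaagagacagag

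Promoter windows of 250 bases before and 50 after a start were matched for 7 of the 9 genes, 10 windows in all, and CRAT and CPT1B had none in the table. The letters TAAACA, a core bound by forkhead factors, were searched on both strands, and GTAAACA, which contains them, likewise. Other forms of the forkhead site were not searched. Both stood in 1 of the 10 windows, the second BBOX1 start, while 12.3% of 34943 windows of all genes held TAAACA and 3.42% held GTAAACA. No window of the set held the consensus PPAR response element, searched on both strands, which 0.0229% of all windows held. In G and C content the windows ranged from 44.3% for BBOX1 to 70.0% for CROT, with TMLHE at 62.7%.

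TMLHE was the gene of the set with the widest difference. Its signal was 13.5 and 6.87 on the FOXC1 arrays, against 387 and 357 on the vector arrays. Both FOXC1 arrays lay far below both vector arrays, and the lowest vector value was 26.4 times the highest FOXC1 value. On the scale of log2(signal + 16), on which all log2 values here are given, the difference FOXC1 minus vector was -3.90, or 14.9-fold lower, and 1 of the 18417 genes had a larger fall. The FOXC1 signals lay under the offset of 16, so this fold and its rank depend on it: 0 genes had a larger fall at an offset of 1 and 4 at 64, and the fold came to 34.8 at an offset of 1 and to 5.88 at 64, and the plain ratio of the group means was 36.5. Only 27 genes, TMLHE included, had a FOXC1 mean of 10.2 or less. The gap between replicates was 0.37 in FOXC1 cells and 0.11 in vector cells on the log2 scale.

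**Figure D1:**
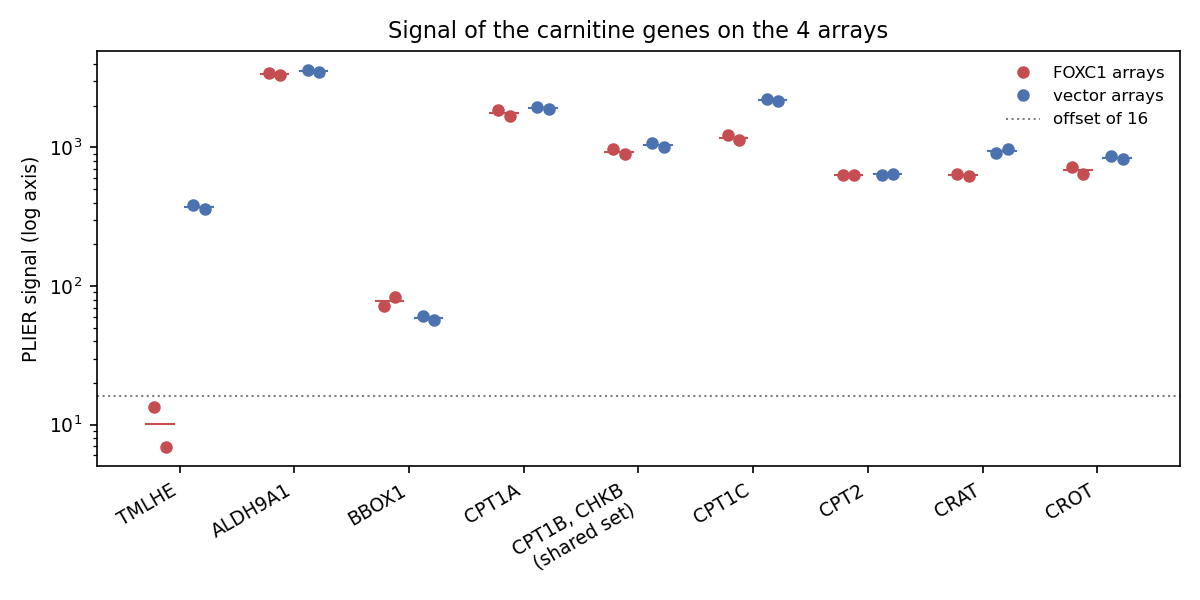
PLIER signal on a log axis for each gene of the set on each FOXC1 array (red, left) and vector array (blue, right), with short bars at the group means and a dotted line at the offset of 16. TMLHE lies at 13.5 and 6.87 on the FOXC1 arrays and at 387 and 357 on the vector arrays, while no other gene of the set comes near the offset.

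The other synthesis enzymes did not pass the test, which 31.4% of all genes passed. BBOX1 was dim, with 71.5 and 84.0 on the FOXC1 arrays and 60.8 and 57.1 on the vector arrays. Both FOXC1 arrays lay above both vector arrays, with a log2 difference of 0.32 (95% interval 0.04 to 0.60, adjusted p = 0.0764). ALDH9A1, which also oxidises other aminoaldehydes, had 3419.9 and 3357 on the FOXC1 arrays and 3641 and 3522 on the vector arrays. Its groups did not overlap, and its log2 difference of -0.08 (95% interval -0.15 to -0.01, adjusted p = 0.0964) missed the threshold. It passed when every array was centred on its median (adjusted p = 0.0478) and after quantile normalization (0.0193).

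Of the acyltransferases CPT1C, CRAT and CROT passed the test, all lower in FOXC1 cells. CPT1C, the brain-type member of the CPT1 family, which resides in the endoplasmic reticulum and has little transferase activity, had 1235 and 1124 on the FOXC1 arrays, against 2229 and 2169.9 on the vector arrays. Every FOXC1 value lay below every vector value, and CPT1C fell 1.86-fold (log2 -0.89 ± 0.05 SE, adjusted p = 1.24e-11). CRAT, which exchanges acetyl groups between carnitine and coenzyme A, had 643 and 618 on the FOXC1 arrays and 910.4 and 970.4 on the vector arrays. The groups were well apart, and CRAT fell 1.48-fold (log2 -0.56 ± 0.06 SE, adjusted p = 5.11e-07). CROT, the peroxisomal medium-chain enzyme, had 728 and 647 on the FOXC1 arrays and 868 and 823 on the vector arrays. It fell 1.23-fold (log2 -0.29 ± 0.07 SE, adjusted p = 0.00212), but missed the threshold in a fit without a variance trend (adjusted p = 0.0564).

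The enzymes of the main route for long-chain acyl groups did not pass. CPT1A, the widely expressed outer membrane enzyme and the main control point of fatty acid oxidation, had 1871 and 1694 on the FOXC1 arrays and 1962 and 1881 on the vector arrays. FOXC1 replicate 1 lay only just under vector replicate 2, and the log2 difference was -0.11 (95% interval -0.21 to -0.004, adjusted p = 0.11). CPT1A passed, lower, with median centring (adjusted p = 0.0396) and with the replicate number as a block (0.0364). Over the alternatives its log2 difference ran from -0.18, without FOXC1 replicate 1, to -0.04. CPT2 had 628 and 629 on the FOXC1 arrays and 637 and 649 on the vector arrays, with a log2 difference of -0.03 (95% interval -0.17 to 0.11, adjusted p = 0.768). The probe set shared by CPT1B, CHKB and their readthrough had 968 and 895 on the FOXC1 arrays and 1073 and 1010.3 on the vector arrays. Its difference of -0.16 missed the threshold narrowly (adjusted p = 0.0513) and cannot be assigned to 1 of its genes. It passed, lower, under 9 of the alternatives run, among them the looser threshold of 0.10 on the same fit.

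**Figure D2:**
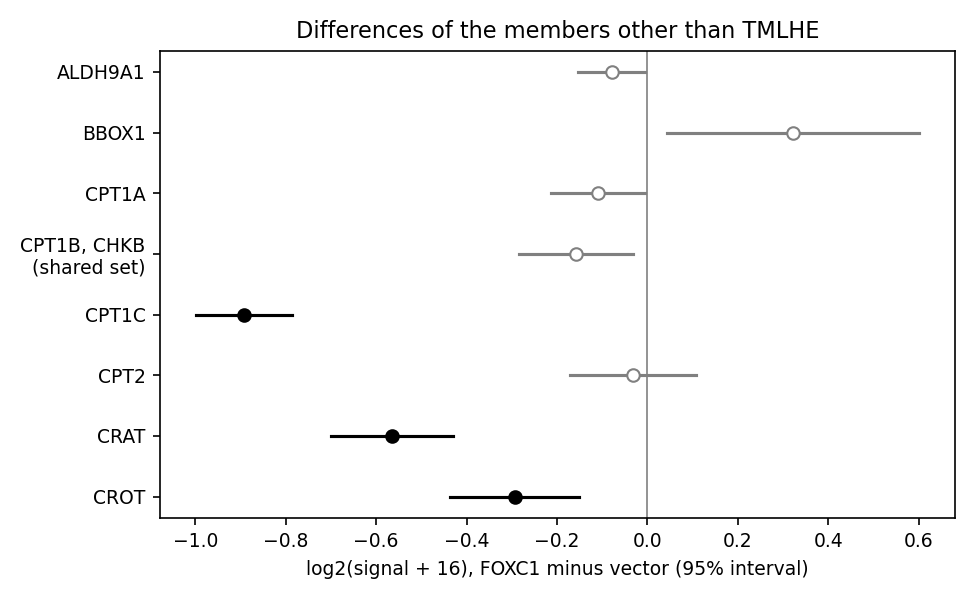
Differences in log2(signal + 16), FOXC1 minus vector, with 95% intervals from the limma fit, for the genes of the set other than TMLHE and for the probe set shared by CPT1B and CHKB. Filled black points passed the test (CPT1C, CRAT and CROT, all lower), and open grey points did not, with BBOX1 alone to the right of 0.

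Of the 7 genes other than TMLHE with a probe set of their own, limma called 3 lower and 0 higher, against 15.5% and 15.9% of all genes, and 5 and 1 had an unadjusted p under 0.05. In all 7 the groups did not overlap, 6 lower and 1 higher, while 63.5% of all genes had groups that did not overlap, 26.4% lower and 37.1% higher. Their median log2 difference was -0.11, beside 0.03 over all genes. With median centring 5 were called lower, ALDH9A1 and CPT1A added.

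The antisense transcript and the neighbours of TMLHE were also read. TMLHE was selected on its difference, so a smaller difference in other genes is largely fixed by that choice. The antisense gene TMLHE-AS1 lay on probe sets that also name an uncharacterised locus, listed 2 times with the same values, at 219 and 214 on the FOXC1 arrays and 213 and 219.9 on the vector arrays. The groups overlapped, and the 95% interval of the log2 difference ran from -0.20 to 0.20. On the X chromosome, in the order of the GRCh38.p14 gene table, 8 measured genes before TMLHE and the 3 after it were read from the same fit. Of these 11 genes DKC1, the outermost one and a core protein of H/ACA ribonucleoproteins, was called higher by 1.15-fold (adjusted p = 5.06e-05), and 0 were called lower in limma, with 0 lower also at an unadjusted p under 0.05. The gene next before TMLHE, the chloride channel family member CLIC2, had 73.7 and 55.5 on the FOXC1 arrays and 72.9 and 63.5 on the vector arrays. The gene next after it, the Sprouty family member SPRY3, had 161 and 144 on the FOXC1 arrays and 171 and 172 on the vector arrays (log2 -0.16, adjusted p = 0.303). Across the 11 the log2 differences ran from -0.16 to 0.21. Of the 693 measured genes of the X chromosome other than TMLHE, these 11 included, 13.1% were called higher and 11.4% lower.

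**Figure D3:**
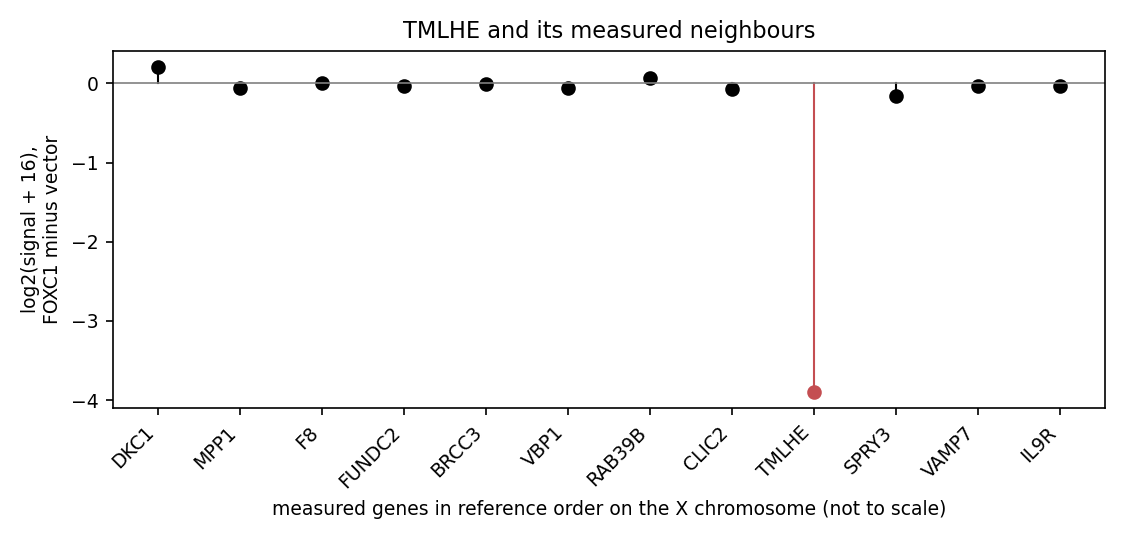
Log2 differences, FOXC1 minus vector, of TMLHE (red) and of the measured genes beside it on the X chromosome, placed in reference order and not to scale. TMLHE stands at -3.90, and the 11 neighbours lie between -0.16 and 0.21.

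By the smallest Euclidean distance between centred log2 values over the 4 arrays, the genes most like TMLHE were CLDN4 (distance 0.38), CDH11 (0.43), CDK15 (0.60) and MPZL2 (0.61). MPZL2 had 38.5 and 27.9 on the FOXC1 arrays, against 474 and 450.0 on the vector arrays, and CLDN4 had 36.1 and 39.8 on the FOXC1 arrays, against 703 and 671 on the vector arrays. With 4 arrays in 2 groups this likeness is mainly one of the size of the fall.

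The list around carnitine supply held 9 measured genes, not all of them carnitine carriers or enzymes. They were SHMT1, SHMT2, SLC22A4, SLC22A5, SLC22A16, SLC23A1, SLC23A2, SLC25A20 and SLC25A29. Of these 2 were called higher and 2 lower (22.2% each), beside 15.9% and 15.5% of all genes. SLC22A5, the main plasma membrane carnitine carrier, had 679.6 and 626 on the FOXC1 arrays and 724 and 757 on the vector arrays. Its log2 difference of -0.18 narrowly missed the threshold (95% interval -0.32 to -0.04, adjusted p = 0.0505). Over the alternatives it ran from -0.24, without FOXC1 replicate 1, to -0.12. SLC22A4, a related carrier that prefers ergothioneine, rose 1.21-fold, with 1228 and 1152 on the FOXC1 arrays and 973 and 979.7 on the vector arrays. SLC25A20, the acylcarnitine carrier of the inner mitochondrial membrane, was called lower (log2 -0.23, adjusted p = 0.0109), with 707 and 657 on the FOXC1 arrays and 789 and 812 on the vector arrays. That call no longer held without FOXC1 replicate 2 (adjusted p = 0.0534), vector replicate 1 (0.0515) or vector replicate 2 (0.126). Of the serine hydroxymethyltransferases, proposed for the aldolase step, SHMT1 was called lower (log2 -0.23) and SHMT2 higher (log2 0.10). SHMT2 did not pass without FOXC1 replicate 1 (adjusted p = 0.11) and without vector replicate 1 (0.144).

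The genes of fatty acid activation and oxidation were mixed, with more called lower than higher. Of 14 genes that make fatty acyl-CoA, 6 were called lower (42.9%) and 1 higher (7.14%), beside 15.5% and 15.9% of all genes. The gene called higher was the arachidonate-preferring synthetase ACSL4 (log2 0.14), a call that did not hold without vector replicate 2 (log2 0.12). ACSF2, a mitochondrial acyl-CoA synthetase, had 955 and 875 on the FOXC1 arrays and 1632 and 1667 on the vector arrays, a 1.79-fold fall, and ACSM3 and the acetyl-CoA synthetase ACSS1 fell by 0.53 and 0.41 on the log2 scale. Of 19 mitochondrial beta-oxidation genes, 5 were called lower (26.3%) and 2, ECI2 and ECHS1, higher (10.5%). The call of ECHS1 did not hold without FOXC1 replicate 1 (log2 0.07) or vector replicate 1 (log2 0.06). ETFDH, which passes electrons from the dehydrogenases to ubiquinone, had 821 and 782 on the FOXC1 arrays and 1164 and 1178 on the vector arrays, a 1.45-fold fall, and DECR1, needed for unsaturated fatty acids, fell 1.42-fold. ACAD8, an acyl-CoA dehydrogenase of valine breakdown, fell by 0.35 on the log2 scale. The trifunctional protein subunits HADHA (log2 -0.03) and HADHB (log2 0.02) did not pass.

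Of 12 peroxisomal genes limma called HSD17B4, ACOX2, ABCD4 and ABCD3 lower, by 0.13 to 0.19 on the log2 scale. These were 33.3% of the list, and 0 were called higher (1 at an unadjusted p under 0.05). Of all genes 15.5% were called lower and 15.9% higher. ACOX2 lost its call without FOXC1 replicate 2 (adjusted p = 0.0613), vector replicate 1 (0.115) or vector replicate 2 (0.185), and ABCD4 (0.204) and ABCD3 (0.119) lost theirs without vector replicate 1. Of 9 genes of malonyl-CoA, the inhibitor of CPT1, and of AMPK, limma called acetyl-CoA carboxylase ACACA lower (log2 -0.14, 11.1% of the list). It called 0 higher (1 at an unadjusted p under 0.05). The call of ACACA was lost without vector replicate 1 (log2 -0.13) or vector replicate 2 (log2 -0.15).

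Regulators and targets of the PPAR nuclear receptors, which control many genes of fatty acid oxidation, CPT1A among them, had the widest differences of these lists. Of 11 measured, 7 were called lower (63.6%) and 2 higher (18.2%), beside 15.5% and 15.9% of all genes. This list, like the others, was chosen with earlier results of these data known, so its shares are a description. The list's median log2 difference was -0.51, beside 0.03 over all genes. PDK4, a kinase that restrains pyruvate dehydrogenase, had 209 and 243 on the FOXC1 arrays and 525 and 542 on the vector arrays. It fell 2.27-fold (log2 -1.19 ± 0.09 SE, adjusted p = 1.07e-09). The coactivator PPARGC1A had 422 and 401 on the FOXC1 arrays and 825 and 784 on the vector arrays, a 1.92-fold fall. PPARG, the receptor of fat cell formation, had 3909 and 3925 on the FOXC1 arrays and 6440.0 and 6639.6 on the vector arrays. It fell 1.67-fold, and the groups lay far apart. The others, named after their values were seen, were the falls of PPARA (log2 -0.51), the partner receptor RXRA (log2 -0.72), the secreted lipase inhibitor ANGPTL4 (log2 -0.69) and the lipid droplet protein PLIN2 (log2 -0.37), and the rises of PPARD (log2 0.36) and ESRRA (log2 0.26).

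Other dioxygenases that use 2-oxoglutarate, as TMLHE and BBOX1 do, were also read. Of 19 measured, 8 were called lower (42.1%) and 1, the aspartyl hydroxylase ASPH, higher (5.26%, log2 0.10). The call of ASPH did not hold without vector replicate 1 (log2 0.11) or vector replicate 2 (log2 0.09). The largest falls were in the collagen prolyl hydroxylases P4HA1 (log2 -0.43) and P4HA2 (log2 -0.40) and the lysyl hydroxylase PLOD1 (log2 -0.42). Over all 7 lists together 93 genes were measured, 35.5% of them called lower and 8.60% higher, beside 15.5% and 15.9% of all genes. These shares too are a description, since the lists were chosen with earlier results known.

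**Figure D4:**
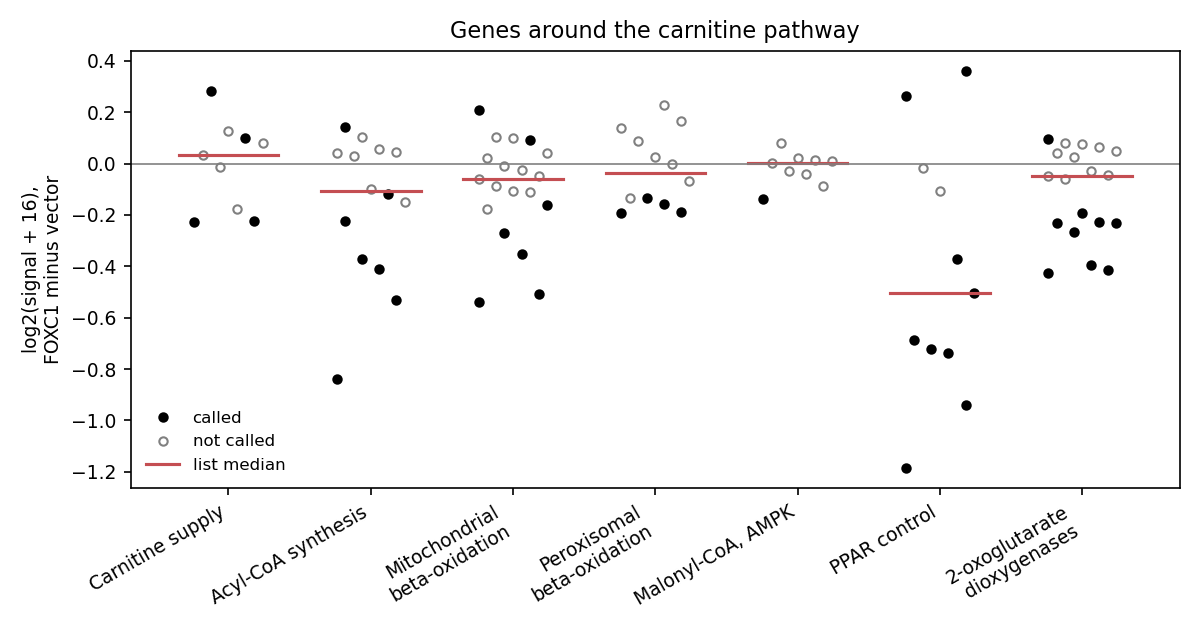
Log2 differences, FOXC1 minus vector, of each measured gene in 7 lists around the carnitine pathway, with filled points for genes that passed the test, open points for the rest and red lines at the list medians. The PPAR list has its median at -0.51, while the carnitine supply and malonyl-CoA lists have medians near 0.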

How the data were processed

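The arrays measured RNA of 2 FOXC1 and 2 vector samples. Per the labels, the authors summarised probes at gene level with PLIER in Affymetrix Expression Console, and the deposited column holds linear intensity. No version, background step or normalization is given in the sources used here. Arrays carry no read depth, so their number limits the precision, and p-values measure the spread between these samples, which may be technical. Of 33297 probe sets 19460 had 1 symbol, 1754 several and 12083 none.

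An offset of 16 was added before log2, since PLIER signal can approach 0, which shrinks the folds of dim transcripts. A limma fit (version 3.58.1, R 4.3.3) covered the 21214 named probe sets (eBayes with a trend, two-sided, 2 residual and 18.1 prior degrees of freedom) and adjusted by Benjamini-Hochberg. The fit was tested on simulated data. Signals are given per array.

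The members and lists were chosen with earlier results of these data known. Named genes were all members, from each list the 3 called genes with the largest change (or all where 5 or fewer were called) with SLC22A5 and SLC25A20, the neighbours, and the 4 genes most like TMLHE. HADHA, HADHB, ACSL4, ECI2, ECHS1, ASPH, PPARA, RXRA, ANGPTL4, PLIN2, PPARD, ESRRA and the cell type markers were named after their values were seen. Alternatives were offsets, filters on signal, scaling, variance moderation, the replicate block, leaving out each array, averaging probe sets, all rows and an adjusted p of 0.10. Protein comparisons were not run.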

Additional observations from a re-analysis of the deposited data

How the results depend on the processing

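CPT1C and CRAT kept their direction and their call under all alternatives that held them, with log2 differences of -0.96 to -0.82 and -0.61 to -0.52, and CROT (-0.38 to -0.21) lost it only without a variance trend. TMLHE was lower under all alternatives that held it, with log2 differences of -5.12 at an offset of 1 and -2.55 at 64, and -4.08 to -3.71 without 1 array. It fell out under both filters on signal. Of the genes other than TMLHE, 1 was called lower with a filter at the 50th percentile of signal, where fewer were tested, and 5 with median centring, and 1 was called higher at an adjusted p of 0.10. Of the 93 genes of the lists, 8 were called higher, but 4 with median centring, 4 without a variance trend, 5 with all rows fitted and 13 when arrays were centred over named probe sets only, an alternative chosen after seeing the data, as was counting the shared CPT1B probe set. Over all genes 2925 were called higher and 2852 lower, but 1461 and 1790 without a variance trend, 1739 higher and 3396 lower with median centring, 3758 higher and 2543 lower when centred over named probe sets, and 1858 higher with all rows. Median centring also ended the rises of SHMT2, ACSL4, ECHS1 and ASPH, quantile normalization those of SHMT2 and ECHS1, all rows fitted those of SHMT2, ECHS1 and ASPH and the falls of ACOX2 and ACACA, and a fit without a variance trend the rises of SHMT2, ACSL4, ECHS1 and ASPH and the falls of SLC25A20, ACOX2, HSD17B4, ABCD3, ABCD4 and ACACA. SLC22A5 passed, lower, under 8 alternatives, among them the looser adjusted p of 0.10 on the same fit. Leaving out 1 array gave 1913 (without vector replicate 2) to 2951 genes called higher and 2059 to 3142 lower, 5 (without vector replicate 1) to 12 list genes higher and 26 to 37 lower, and 3 to 4 members lower.

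The deviations of arrays with the same replicate number were not correlated across probe sets (correlation -0.015). This value cannot tell whether same-numbered samples were prepared or processed together, since the labels give only the replicate numbers. With the replicate block 3339 genes were called higher and 3099 lower, 10 list genes higher and 35 lower, and 4 members lower, CPT1A added. Apart from the changes named here and in the results, the causes of which were not tested, the precision of dim genes such as BBOX1 is limited by signal over background, and no detection calls were used.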
